A study of Mus musculus with 36 samples.

Results

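Population B is 1 of 6 sorted cell populations, 5 lettered from A to E and 1 called Neg, that were profiled by RNA sequencing from 3 regions of the brain of C57/Bl6 mice. The 6 libraries of population B are described here, out of 36 in the series: 2 from the olfactory bulb, 2 from the cortex and 2 from the brainstem. They were chosen by the population and region that the submitters gave each sample. All carry the same strain, tissue and cell type labels, with no treatment, transgene or age given, and every sample of the series, B included, is labelled astrocyte. The labels used here give neither the surface antigens that define B nor its yield of cells. Nor do they say whether the libraries of a region came from separate animals. The tests therefore rest on the spread between libraries, and that spread may be technical.

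Astrocytes are the glia that take up glutamate, buffer potassium, supply lipids and contact blood vessels, and they keep a regional identity from the part of the neural tube that formed them. Microglia are the resident macrophages of the brain; they survey the tissue, engulf debris and synapses, and release cytokines when stimulated. The olfactory bulb holds a further glial type, the olfactory ensheathing glia, which wrap the axons of olfactory sensory neurons where these enter the outer layer of the bulb. The bulb also receives new interneurons throughout life. The brainstem carries many myelinated tracts and few of the neuron types found in the cortex.

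The label astrocyte was checked against marker lists. All 30 genes of a core astrocyte list were detected in at least 5 of the 6 B libraries, and so were all 30 genes of a core microglial list. The summed level of the astrocyte list lay between 3803 and 8912 FPKM (fragments per kilobase of transcript, scaled by the mapped fragments of the library) and that of the microglial list between 1325 and 2464 FPKM. Both cell types were therefore represented in the RNA of B in every region, along with oligodendrocyte genes, which summed to between 1192 and 5844 FPKM over 20 genes. These are bulk samples, in which fewer cells of a type and less RNA per cell cannot be told apart.

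The libraries of B held between 9397 and 10359 genes at 1 FPKM or more, except brainstem replicate 2, which held 5903. In that library 83.3% of transcripts were listed at 0, against 65.7% to 72.1% in the other 5. Its correlation across genes with the other B libraries lay between 0.559 and 0.632, whereas the other pairs lay between 0.754 and 0.853; genes are not independent replicates, and these values only describe the libraries. Its deposited coverage per FPKM, a measure proportional to depth, was 2.95, inside the range of 2.70 to 4.07 of the others. It was also the only B library from the second of 2 series of library numbers in the titles. Calls of named genes that involve the brainstem are therefore also given without it, as are the main list medians. RNA of 4 Y-linked genes was present in replicate 1 of each region, at sums of 10.5 FPKM in the olfactory bulb, 2.58 in the cortex and 9.88 in the brainstem, and was listed at 0 in each replicate 2, so it does not separate the regions.

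Differences between regions are on the log2(FPKM + 1) scale, with a standard error (SE) from limma's moderated test, and a gene was called at a Benjamini-Hochberg adjusted p under 0.05 over 13579 genes tested. The F test over the 3 regions called 108 genes, 0.795% of those tested, and 62 without brainstem replicate 2. The olfactory bulb was set apart most often: 27 genes were called higher there than in both other regions, 10 were called higher in the brainstem than in both others, and 4 higher in the cortex than in both others. An exact 0 in these tables may be a failed estimate, which was not tested. Widely used genes such as Xrcc6, a subunit of a DNA repair complex, were listed at 0 in 33 of the 36 libraries. Of the 36 genes called between olfactory bulb and cortex, 10 were at 0 in 24 or more libraries of the series, as were 11 of the 26 called between brainstem and cortex and 24 of the 111 called between olfactory bulb and brainstem, against 7.4% of all tested genes. A group with both libraries at 0 adds no spread to the pooled SE, so a gene at 0 in most groups can pass on few values. For genes at 0 in a whole region, library values and the test are given here without a fold change.

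The first comparison set the olfactory bulb of B against its cortex. There, 30 genes were called higher in the bulb (0.221% of genes tested) and 6 lower (0.0442%), while the median difference of all genes was 0. The 30 were led by genes of olfactory ensheathing glia and of olfactory sensory neurons. Npy, the neuropeptide Y gene (chromosome 6, 49822710 to 49829507, GRCm38), which ensheathing glia express, measured 556 and 308 FPKM in the olfactory bulb, 0.169 and 0 in the cortex, and 13.7 and 0 in the brainstem. Both bulb libraries were far above the other 4, and the log2 difference from cortex was 8.58 ± 1.43 (SE pooled over the series, n = 2 libraries per region, adjusted p = 0.00416). Frzb, a secreted Wnt inhibitor (chromosome 2, 80411970 to 80447625), measured 76.6 and 41.5 FPKM in the bulb, 0.198 and 0.0449 in the cortex, and 1.97 and 0 in the brainstem. The regions did not overlap, and the bulb exceeded the cortex by 5.68 ± 0.77 (adjusted p = 0.000224) and the brainstem by 5.06 ± 0.77 (adjusted p = 0.000793). Frzb held against the brainstem without brainstem replicate 2, at 4.27 (adjusted p = 0.0354).

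**Figure D1:**
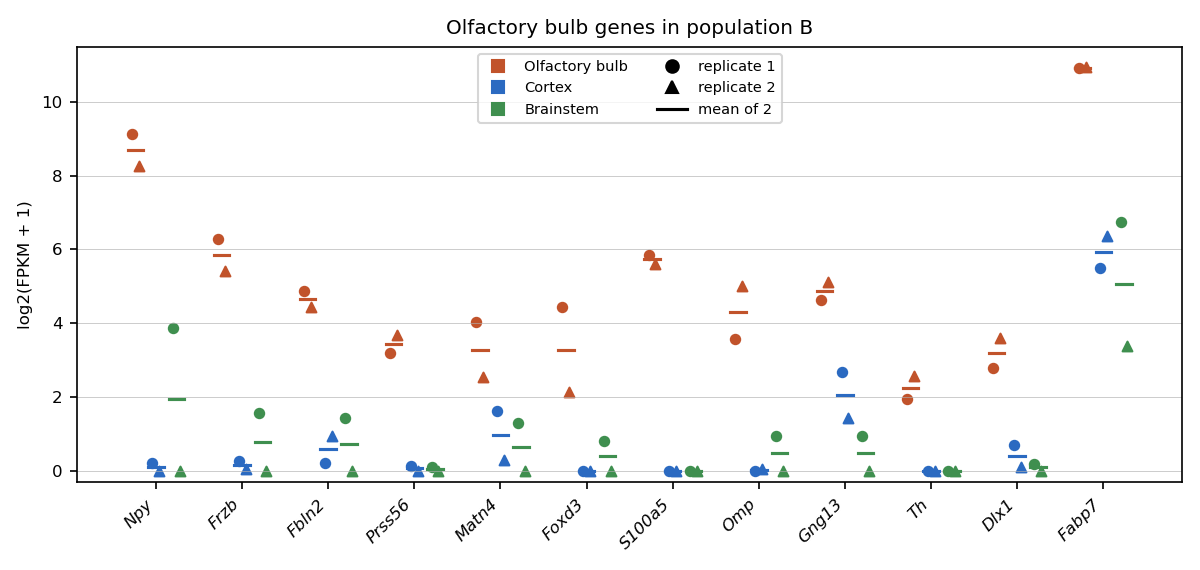
Level of 12 genes in each B library, as log2(FPKM + 1) on the vertical axis, with regions by colour, replicates by symbol and a bar at the mean of 2 libraries. Both olfactory bulb libraries lie above the other 4 for each of the 12 genes, and S100a5 and Th are at 0 in all cortex and brainstem libraries.

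Other genes of the ensheathing glia list were higher in the bulb as well. Of its 12 genes, 11 had a positive difference between bulb and cortex, 5 were called, and the median was 2.59, beside a median of 0 and a share of 49.8% positive over all genes. The called genes were Npy, Frzb, Fbln2, Prss56 and Foxd3. Fbln2, an extracellular matrix protein, measured 28.4 and 20.8 FPKM in the bulb against at most 1.71 elsewhere, a difference from cortex of 4.08 ± 0.82 (adjusted p = 0.0213). Prss56, a serine protease, measured 8.24 and 11.9 FPKM in the bulb and at most 0.0994 elsewhere, a difference of 3.38 ± 0.49 (adjusted p = 0.000406). Foxd3, a transcription factor of neural crest derivatives, measured 20.6 and 3.38 FPKM in the bulb and was listed at 0 in both cortex libraries (adjusted p = 0.0489). Sostdc1, a secreted inhibitor of the same list, went the other way without passing the test, with 2.62 and 0.671 FPKM in the bulb, 18 and 5.99 in the cortex, and 53.6 and 4.46 in the brainstem. Summed over the list, the bulb libraries held 757 and 432 FPKM, the cortex 33.9 and 25.4, and the brainstem 83.0 and 10.8. Against the brainstem, 5 of the 12 were called as well, with a median of 2.76, or 2.23 without brainstem replicate 2.

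Genes of the neurons that enter or populate the bulb were present in the same libraries. S100a5, a calcium-binding protein of olfactory sensory neurons (chromosome 3, 90608523 to 90611780), measured 56.3 and 48.1 FPKM in the bulb and was listed at 0 in all 4 other libraries (adjusted p = 0.0236 against cortex and 0.0157 against brainstem). Omp, the olfactory marker protein of mature sensory neurons (chromosome 7, 98143359 to 98145502), measured 11.0 and 31.3 FPKM in the bulb and at most 0.937 elsewhere, 4.27 ± 0.74 above the cortex (adjusted p = 0.0049). Of the 5 tested genes of the sensory neuron list, 2 were called higher in the bulb than in the cortex and 3 than in the brainstem, the third being Gng13, a G-protein subunit. The list was not raised as a whole: 3 of the 5 were positive and 2 negative against the cortex. Against the brainstem 4 were positive and 1 negative. All 22 tested genes of the list of bulb interneurons and neuroblasts had a positive difference from cortex, with a median of 1.56, but only Th was called. By limma 14 of them had an unadjusted p under 0.05, beside 872 of all 13579 genes. All 22 were also positive against the brainstem, beside 66.4% of all genes. There 17 had an unadjusted p under 0.05, beside 1752 of all genes, but brainstem replicate 2 listed 17 of the 23 matched genes at 0. Th, the tyrosine hydroxylase of dopaminergic neurons, measured 2.84 and 4.90 FPKM in the bulb and was listed at 0 in the other 4 libraries (adjusted p = 0.0139). Dlx1, a transcription factor of bulb interneurons, measured 5.86 and 11.2 FPKM in the bulb and at most 0.630 elsewhere, and was called against the brainstem alone (3.10 ± 0.77, adjusted p = 0.0461). Gad1, which makes GABA, measured 8.48 and 16.3 FPKM in the bulb and at most 1.45 elsewhere and was not called (adjusted p = 0.362 against cortex). The sensory neuron list summed to 93.0 and 119 FPKM in the bulb and at most 9.50 elsewhere, with most of the bulb sums from S100a5, Omp and Gng13. What part these neuronal genes have in the other bulb results was not tested.

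Fabp7, a fatty acid binding protein of radial glia, astrocytes and ensheathing glia (chromosome 10, 57784881 to 57788450), had the highest level among the genes of the astrocyte list in the bulb. It measured 1929 and 1959 FPKM there, 44.3 and 80.6 in the cortex, and 106 and 9.47 in the brainstem. The bulb libraries were above all others. The difference from cortex, 5.0 ± 1.36, was not called (adjusted p = 0.149), while the difference from brainstem was 5.86 ± 1.36 (adjusted p = 0.0359). Without brainstem replicate 2 the latter was 4.19 and was no longer called (adjusted p = 0.581). In the fit of the 6 B libraries alone, Fabp7 was called in both comparisons.

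Beyond the lists, Clca3a1, which belongs to a family of chloride channel regulators, measured 50.8 and 30.0 FPKM in the bulb and at most 1.25 elsewhere (5.29 ± 0.91 above cortex, adjusted p = 0.0049). Prrg3, a membrane protein with a Gla domain, measured 13.7 and 16.6 FPKM against at most 0.840, a difference of 3.74 ± 0.73 (adjusted p = 0.0155). Fndc1, a protein with fibronectin domains, measured 19.4 and 11.4 FPKM against at most 1.96, a difference of 3.66 ± 0.70 (adjusted p = 0.0139). Each of these 3 was also called higher in the bulb than in the brainstem, but not without brainstem replicate 2, where Clca3a1 was at 4.16 (adjusted p = 0.171), Prrg3 at 3.13 (adjusted p = 0.22) and Fndc1 at 2.42 (adjusted p = 0.454). Only Frzb, Npy, S100a5, Clca3a1 and Fabp7 were called between bulb and cortex when the 6 B libraries were fitted alone. After each library was rescaled to the same nuclear total, the calls were 0 higher and 1 lower in place of 30 and 6.

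The 6 genes called lower in the bulb than in the cortex were Myoc, Ap4m1, Klk8, Mcrs1, Acat3 and Emx2os. Myoc, the secreted glycoprotein myocilin, was listed at 0 in both bulb libraries and measured 3.88 and 10.6 FPKM in the cortex, 0.487 and 0 in the brainstem (adjusted p = 0.015). Emx2os, a transcript antisense to the forebrain transcription factor Emx2, measured 2.23 and 2.82 FPKM in the cortex, 0.279 and 0 in the bulb, and was listed at 0 in the brainstem (adjusted p = 0.0489 against bulb and 0.0291 against brainstem, the latter 0.109 without brainstem replicate 2). Since the kit keeps no strand information, reads of Emx2os and of genes that overlap it cannot be told apart. Klk8, a secreted protease, measured 5.90 and 3.87 FPKM in the cortex and 0.199 and 0 in the bulb, but 4.49 and 0 in the brainstem. Ap4m1, a subunit of an adaptor complex, was at 0 in 29 of the 36 libraries. The number of calls between bulb and cortex depended on single libraries, being 9 without cortex replicate 2, 50 without cortex replicate 1 and 55 without bulb replicate 1. Without cortex replicate 2, 4 of the 36 calls were kept, among them Frzb (5.58, adjusted p = 0.0138) and Prss56 (3.31, adjusted p = 0.0235), while Npy (8.47, adjusted p = 0.0709) and Omp (4.30, adjusted p = 0.0712) were just outside the threshold. S100a5 lost its call without each bulb and each cortex library in turn. Ang, Emc9, Lrrc10b, Rims1, Crym and Nde1 were the next on the lower side by size and were not called.

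The second comparison set the brainstem of B against its cortex. In it, 13 genes were called higher in the brainstem (0.0957% of genes tested) and 13 lower (0.0957%), beside a median of -0.30 over all genes. The higher side included Dao, which encodes D-amino acid oxidase, the enzyme that degrades D-serine and is known from hindbrain astrocytes (chromosome 5, 114003703 to 114025682). It measured 9.94 and 6.96 FPKM in the brainstem, was listed at 0 in both cortex libraries, and measured 0.327 and 0.126 in the bulb. Brainstem libraries did not overlap the other 4, with an adjusted p of 0.00345 against cortex and 0.00664 against bulb. Both calls held without brainstem replicate 2 (adjusted p = 0.00984 and 0.024). The call against cortex was lost in 6 of 20 alternatives, with an adjusted p of up to 0.37: rescaling, quantile normalization, array quality weights, a required difference beyond 1, and the 6 B libraries alone with and without a term for Y-linked RNA. In the fit of the 6 B libraries alone, none of the 26 genes was called. Dao was the only called gene among the 13 tested genes of D-serine and glycine metabolism. Srr, which makes D-serine, measured 3.38 and 0 FPKM in the brainstem and between 4.74 and 8.71 elsewhere. Slc7a10, a transporter of D-serine, measured 40.5 and 28.5 FPKM in the brainstem, 32.6 and 25.9 in the cortex, and 16.7 and 10.1 in the bulb.

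The other genes called higher in the brainstem were low or absent in most libraries. Ndufa4l2, a mitochondrial protein induced by low oxygen, measured 3.09 and 22.9 FPKM in the brainstem and was listed at 0 in the other 4 libraries of B (adjusted p = 0.000143 against cortex). Ctse, the endosomal protease cathepsin E, measured 5.72 and 4.91 FPKM in the brainstem and at most 1.35 elsewhere, 2.37 ± 0.50 above cortex (adjusted p = 0.0348). Cd80, a costimulatory ligand of antigen-presenting cells, measured 1.74 and 8.79 FPKM in the brainstem and at most 1.07 elsewhere, 2.05 ± 0.39 above cortex (adjusted p = 0.0136). Tcea3 and Spag5 were named by the same rule, with brainstem values of 1.71 and 21.8 FPKM for Tcea3, a transcription elongation factor, and 3.14 and 7.95 FPKM for Spag5, a spindle protein. Their highest values elsewhere were 0.693 and 0.410 FPKM. Without brainstem replicate 2 the values of Ctse (2.46), Cd80 (1.13), Tcea3 and Spag5 (1.67) no longer passed, while Ndufa4l2 did. Ndufa4l2 was listed at 0 in 33 of the 36 libraries, so most groups add no spread to its SE. In that fit its brainstem level is 3.09 FPKM in 1 library, so passing there does not show agreement between libraries.

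On the lower side stood genes of forebrain neurons and a forebrain transcription factor. Camk2a, the calcium-dependent kinase of forebrain excitatory synapses, measured 120.0 and 89.4 FPKM in the cortex, 26.4 and 89.5 in the bulb, and 2.29 and 3.26 in the brainstem. The brainstem libraries were below all others, by 4.80 ± 0.86 relative to cortex (adjusted p = 0.00766) and by 3.73 ± 0.86 relative to bulb (adjusted p = 0.0359). Camk2n1, an inhibitor of that kinase, measured 78.6 and 95.1 FPKM in the cortex and 10.5 and 2.66 in the brainstem, a difference of -3.75 ± 0.83 (adjusted p = 0.0452). Hpcal4, a neuronal calcium sensor, measured 22.5 and 25.2 FPKM in the cortex and 0.212 and 0 in the brainstem, a difference of -4.50 ± 0.82 (adjusted p = 0.00827). All 12 genes of the cortical neuron list had a negative difference, beside 65.3% of all genes. The list median was -2.01 (-1.53 without brainstem replicate 2), and Camk2a and Camk2n1 were called. That list summed to 261 and 267 FPKM in the cortex, 79.7 and 162 in the bulb, and 17.5 and 5.97 in the brainstem. Whether neuronal RNA takes part in other differences from cortex was not tested.

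Nr2e1, a transcription factor of forebrain neural stem cells and astrocytes, measured 13.6 and 19.4 FPKM in the cortex, 7.08 and 11.3 in the bulb, and 0.893 and 0 in the brainstem, a difference of -3.65 ± 0.76 between brainstem and cortex (adjusted p = 0.0338). Lhx2, a transcription factor of the telencephalon, measured 64.1 and 54.0 FPKM in the cortex, 16.8 and 37.8 in the bulb, but 0.234 and 12.9 in the brainstem, and was not called. Of the 13 tested genes of the forebrain factor list, 12 had a negative difference between brainstem and cortex, beside 65.3% of all genes. The list median was -1.51 (-1.02 without brainstem replicate 2), and Nr2e1 alone was called. The hindbrain factor list, mainly Hox genes, summed to 13.1 FPKM in brainstem replicate 1 but to 1.43 in brainstem replicate 2, and to between 1.00 and 2.75 in the other 4 libraries. Of its 28 genes, 9 reached the filter, and limma called none of them, with 0 at an unadjusted p under 0.05 in each of the 3 comparisons. By these lists, both brainstem libraries were low in forebrain factors, and replicate 1 alone carried hindbrain factors above the level of the other regions.

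Mfge8, a bridge protein that astrocytes secrete and that links apoptotic cells to phagocytes, measured 167 and 228 FPKM in the cortex, 32.2 and 47.5 in the bulb, and 21.5 and 0 in the brainstem, a difference of -5.37 ± 1.17 between brainstem and cortex (adjusted p = 0.0433). Chst2, a sulfotransferase, measured 23.7 and 35.7 FPKM in the cortex, 13.5 and 39.0 in the bulb, and 3.94 and 0 in the brainstem. Hapln1, which links hyaluronan to proteoglycans in the extracellular matrix, measured 5.65 and 13.5 FPKM in the cortex and 0.147 and 0 in the brainstem. Both were called, at -3.76 ± 0.80 for Chst2 (adjusted p = 0.0359) and -3.20 ± 0.67 for Hapln1 (adjusted p = 0.0338). Without brainstem replicate 2, Camk2a held at -4.99 (adjusted p = 0.0418). Without that library Mfge8 was at -3.12 (adjusted p = 0.92), Hpcal4 at -4.36 (adjusted p = 0.0692), Nr2e1 at -3.19 (adjusted p = 0.336), Camk2n1 at -2.93 (adjusted p = 0.571), Chst2 at -2.61 (adjusted p = 0.628) and Hapln1 at -3.10 (adjusted p = 0.179). Of the 26 calls, 6 were shared with the fit without it, and 6 with the fit without cortex replicate 2, in which Dao was kept (adjusted p = 0.0461) and Camk2a was not (-5.01, adjusted p = 0.0539). Rescaling to equal totals gave 3 higher and 11 lower in place of 13 and 13.

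**Figure D2:**
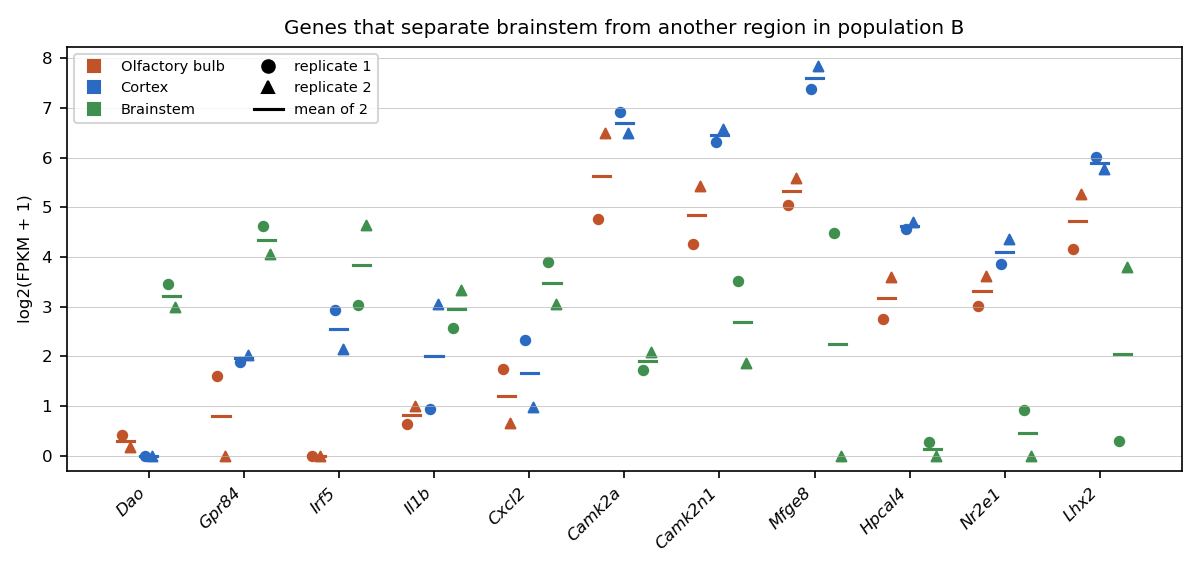
Level of 11 genes in each B library, as log2(FPKM + 1) on the vertical axis, with regions by colour, replicates by symbol and a bar at the mean of 2 libraries. Dao, Gpr84 and Cxcl2 are highest in both brainstem libraries, Camk2a, Camk2n1, Mfge8, Hpcal4, Nr2e1 and Lhx2 are lowest in both of them, and Irf5 is at 0 in both olfactory bulb libraries.

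The third comparison set the olfactory bulb against the brainstem. It gave the most calls, 76 higher in the bulb (0.56% of genes tested) and 35 higher in the brainstem (0.258%), beside a median of 0.34 over all genes. The higher side held the ensheathing and sensory neuron genes given above. It further held Bgn, the matrix proteoglycan biglycan, with 89.3 and 97.5 FPKM in the bulb, 5.23 and 7.50 in the cortex, and 13.7 and 0.0446 in the brainstem (4.59 ± 1.14, adjusted p = 0.0464). Fmo1, a monooxygenase, measured 39.4 and 60.9 FPKM in the bulb, 6.5 and 13.5 in the cortex, and 3.30 and 0.218 in the brainstem (4.45 ± 1.10, adjusted p = 0.0461). Of the 18 genes of the pan-neuron list, 13 were higher in the bulb, beside 66.4% of all genes, with a median of 1.63 (1.38 without brainstem replicate 2), and 2 were called. Celf4, an RNA-binding protein of neurons, measured 15.6 and 31.6 FPKM in the bulb, 23.3 and 30.7 in the cortex, and 1.84 and 0 in the brainstem (3.79 ± 0.90, adjusted p = 0.0416).

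On the side of the 35 genes that were higher in the brainstem than in the bulb, the marker lists of immune cells held few: 2 of 22 cytokine and chemokine genes, 1 of 20 genes of antigen presentation and interferon response, and none of 30 core microglial genes. Gpr84, a receptor for medium-chain fatty acids on activated microglia (chromosome 15, 103308235 to 103310612), measured 23.7 and 15.7 FPKM in the brainstem, 2.70 and 3.08 in the cortex, and 2.06 and 0 in the bulb. The brainstem libraries were above the other 4, and the difference between bulb and brainstem was -3.54 ± 0.68 (adjusted p = 0.00894). Irf5, a transcription factor of inflammatory cytokine genes (chromosome 6, 29526625 to 29541871), measured 7.18 and 24.1 FPKM in the brainstem and 6.65 and 3.46 in the cortex, and was listed at 0 in both bulb libraries (adjusted p = 0.00175). Irf5 was listed at 0 in 25 of the 36 libraries of the series, and the test between bulb and cortex was not passed (adjusted p = 0.0832). Il1b, the cytokine interleukin 1 beta, measured 4.92 and 9.10 FPKM in the brainstem, 0.922 and 7.33 in the cortex, and 0.558 and 0.989 in the bulb, a difference between bulb and brainstem of -2.13 ± 0.47 (adjusted p = 0.0265). Cxcl2, a neutrophil chemokine, measured 13.9 and 7.32 FPKM in the brainstem, 4.05 and 0.967 in the cortex, and 2.37 and 0.588 in the bulb (-2.27 ± 0.55, adjusted p = 0.0457). Cxcl2 did not overlap between brainstem and either other region, while Il1b overlapped between brainstem and cortex.

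Bst2, an interferon-induced antiviral protein, measured 4.6 and 64.7 FPKM in the brainstem and between 0.336 and 3.08 elsewhere (-3.19 ± 0.76, adjusted p = 0.0434), so that 1 library carried most of the difference. Also called were Il7r and Il21r, which are cytokine receptors, Tnfsf13b, a B-cell survival factor, Tyk2, a kinase of cytokine receptors, Ptgs2, the inducible cyclooxygenase, and Slc15a3, an endosomal peptide transporter. These 6 genes were picked out after their values were seen. Their differences between bulb and brainstem lay between -2.45 (Ptgs2) and -1.78 (Tnfsf13b), and without brainstem replicate 2 none of the 6 was called (lowest adjusted p = 0.0896, for Tyk2). Mfrp (-3.81 ± 0.79, adjusted p = 0.0176), Mvk (-3.39 ± 0.75, adjusted p = 0.0277), Klk6 (-2.98 ± 0.71, adjusted p = 0.041) and Grrp1 (-3.01 ± 0.75, adjusted p = 0.0468) were the other large differences, with the higher brainstem value in replicate 2 for all 4. Without that library none of them was called, with Mfrp at -2.66 (adjusted p = 0.407), Mvk at -2.31 (adjusted p = 0.505), Klk6 at -1.78 (adjusted p = 0.737) and Grrp1 at -0.68 (adjusted p = 1). Mvk is a kinase of sterol synthesis, and Klk6 is a protease of oligodendrocytes. Without brainstem replicate 2, Gpr84 (-3.82), Dao, Frzb, Prss56 (3.35) and Ndufa4l2 were still called, the last from 1 library at 3.09 FPKM. Irf5 (adjusted p = 0.0614), Cxcl2 (-2.69, adjusted p = 0.084), Il1b (-1.75, adjusted p = 0.29), Bst2 (-1.41, adjusted p = 0.921), Npy (4.82, adjusted p = 0.466) and S100a5 (adjusted p = 0.127) were not. The same held for Fbln2 (3.22, adjusted p = 0.286), Omp (3.34, adjusted p = 0.171), Gng13 (3.91, adjusted p = 0.407), Dlx1 (3.00, adjusted p = 0.323), Th (adjusted p = 0.0614), Bgn (2.68, adjusted p = 0.893), Fmo1 (3.54, adjusted p = 0.56), Celf4 (3.03, adjusted p = 0.502) and Camk2a (3.92, adjusted p = 0.189), all of which kept their direction. In all, 12 of the 111 calls were shared with the fit without that library. Without bulb replicate 2 the calls fell to 35, of which 16 were shared, and Frzb (5.49, adjusted p = 0.00615) and Irf5 (adjusted p = 0.0228) were kept, whereas Dao (adjusted p = 0.0668) and Gpr84 (-2.73, adjusted p = 0.221) were not. Quantile normalization gave 19 higher and 24 lower in place of 76 and 35.

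The core microglial genes were present in all regions of B at levels that no test separated. None of the 30 core genes was called by limma in any of the 3 comparisons, and 0, 3 and 2 had an unadjusted p under 0.05 between bulb and cortex, brainstem and cortex, and bulb and brainstem. Between bulb and cortex 27 of the 30 were lower in the bulb, with a median of -0.69, beside 49.1% of all genes with a negative difference and a median of 0. Between brainstem and cortex 17 of 30 were higher in the brainstem, beside 32.5% of all genes, with a median of 0.11 beside -0.30. Between bulb and brainstem 23 of 30 were lower in the bulb, beside 32.8% of all genes, with a median of -0.70 beside 0.34. Without brainstem replicate 2 these medians against the brainstem were -0.06 and -0.54, beside -0.07 and 0.10 over all genes in that fit. The list summed to 1535 and 1325 FPKM in the bulb, 1786 and 2464 in the cortex, and 2128 and 2355 in the brainstem, so both bulb libraries were below the other 4. Csf1r, the receptor on which microglial survival depends, measured 80.4 and 92.0 FPKM in the bulb, 94.0 and 153 in the cortex, and 137 and 250.5 in the brainstem. P2ry12, the purinergic receptor of surveying microglia, measured 40.5 and 25 FPKM in the bulb, 41.1 and 72.9 in the cortex, and 32.9 and 77.1 in the brainstem, so that the regions overlapped. C1qc, a chain of the complement starter C1q, measured 208 and 290.3 FPKM in the bulb, 274 and 318 in the cortex, and 273 and 167 in the brainstem.

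**Figure D3:**
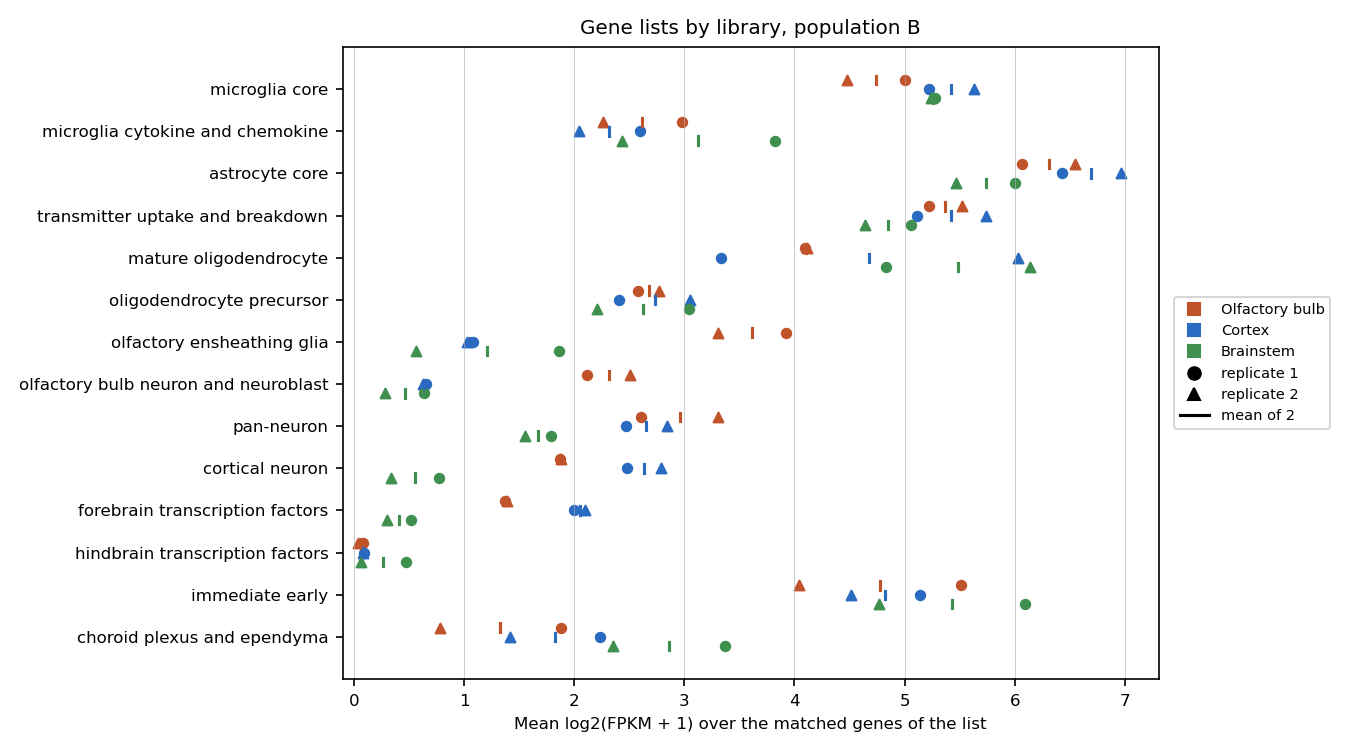
Mean log2(FPKM + 1) over the matched genes of 14 lists (horizontal axis) in each B library, with regions by colour, replicates by symbol and a tick at the mean of 2 libraries. Olfactory ensheathing and olfactory bulb neuron genes are higher in both bulb libraries, forebrain factor and cortical neuron genes are lower in both brainstem libraries, and the mature oligodendrocyte list is spread widely within cortex and brainstem.

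Not all core microglial genes followed the median. Mertk, a receptor for engulfment that astrocytes share, measured 21.6 and 15.0 FPKM in the bulb, 41.7 and 41.7 in the cortex, and 16.1 and 1.39 in the brainstem. Fcrls, a microglial receptor that blood macrophages lack, measured 11.0 and 6.82 FPKM in the bulb, 11.0 and 14.9 in the cortex, and 4.01 and 0 in the brainstem. Neither passed the test between brainstem and cortex (adjusted p = 0.235 for Mertk and 0.151 for Fcrls). The 22 cytokine and chemokine genes had a median of 0.08 between bulb and cortex, 0.80 between brainstem and cortex and -0.49 between bulb and brainstem, with Il1b and Cxcl2 called in the last. The level of this list moved with single libraries: its sum was 416 and 167 FPKM in the bulb, 299.6 and 172 in the cortex, and 661 and 414 in the brainstem. Without brainstem replicate 1 its medians against the brainstem changed sign, to -0.26 and 0.29, beside -0.61 and 0.67 over all genes. Without replicate 2 they were 1.60 and -1.26, beside -0.07 and 0.10 over all genes. Ccl3, a chemokine of activated microglia, measured 204 and 55.8 FPKM in the bulb, 148 and 65.5 in the cortex, and 273 and 237 in the brainstem.

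The 20 immediate early genes, which respond within minutes to stimulation and to tissue dissociation, were highest in the same library as the cytokine genes, brainstem replicate 1. They summed to 1829 and 643 FPKM in the bulb, 1483 and 949 in the cortex, and 2756 and 1917 in the brainstem, with medians of -0.05, 0.65 and -0.87 in the same 3 comparisons and no call by limma (without brainstem replicate 2 the last pair of medians was 1.24 and -1.30; 0, 1 and 0 genes at an unadjusted p under 0.05). Their part in the cytokine differences was not tested. No gene of the lists for microglial activation (17 tested), border macrophages (12), complement (10) or blood leukocytes (5) was called in any comparison by limma, and between 0 and 3 genes of each had an unadjusted p under 0.05. Of the 20 tested genes of antigen presentation and interferon response, Bst2 alone was called, and of the 15 phagocytic receptors and bridges, Mfge8 alone. Mrc1, the mannose receptor of border macrophages, measured between 3.05 and 11.7 FPKM in the 6 libraries, with overlap between the regions.

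The summed astrocyte list was lowest in the brainstem libraries. Between brainstem and cortex, 24 of the 30 core genes had a negative difference, beside 65.3% of all genes. The median was -0.91 beside -0.30 for all genes, and limma called none (5 at an unadjusted p under 0.05). Between bulb and cortex, 23 of 30 were lower in the bulb, beside 49.1% of all genes. The median was -0.58, and limma called none (1 at an unadjusted p under 0.05). Between bulb and brainstem, 20 of 30 were higher in the bulb, beside 66.4% of all genes. The median of 0.31 was close to the 0.34 of all genes, and Fabp7 was the single call. Without brainstem replicate 2 the medians against the brainstem were -0.84 and 0.13, beside -0.07 and 0.10 over all genes in that fit. The list summed to 5902 and 8364 FPKM in the bulb, 5748 and 8912 in the cortex, and 3961 and 3803 in the brainstem. Divided by the microglial sum, this gave 3.84 and 6.31 in the bulb, 3.22 and 3.62 in the cortex, and 1.86 and 1.62 in the brainstem, so this ratio did not overlap between brainstem and the other regions. Fabp7 alone supplied 1929 and 1959 FPKM of the bulb sums.

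**Figure D4:**
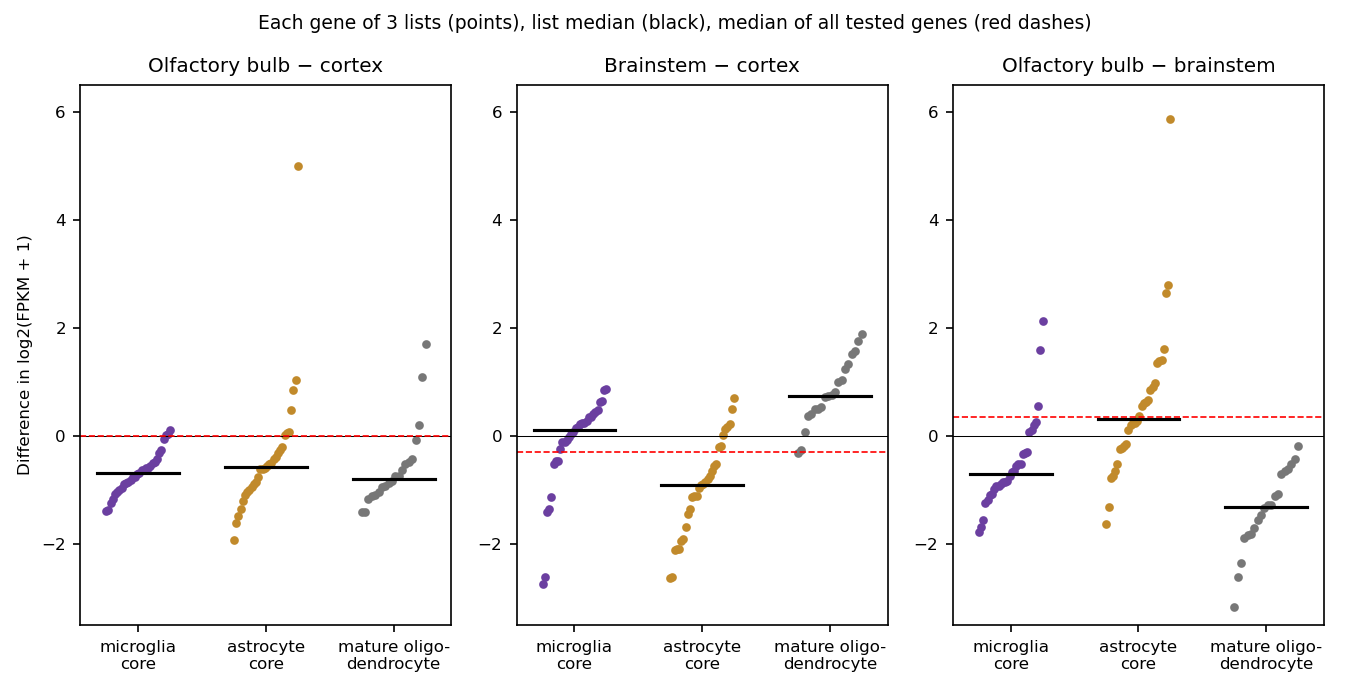
Difference in log2(FPKM + 1) (vertical axis) of each gene of the core microglial, core astrocyte and mature oligodendrocyte lists in the 3 comparisons, with the list median as a black bar and the median of all tested genes as a red dashed line. Most microglial genes lie below 0 when the bulb is compared with either other region, most astrocyte genes lie below 0 when bulb or brainstem is compared with the cortex, and Fabp7 is the highest astrocyte gene in both comparisons of the bulb.

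Single astrocyte genes differed in their pattern. Slc1a2, the main glutamate transporter, measured 189 and 437 FPKM in the bulb, 621 and 1063 in the cortex, and 171 and 209 in the brainstem, with the cortex above both other regions (brainstem minus cortex -2.10 ± 0.82, adjusted p = 0.382). Slc1a3, the other astrocyte glutamate transporter, measured 149 and 204 FPKM in the bulb, 193 and 322 in the cortex, and 81.4 and 53.7 in the brainstem (-1.90 ± 0.75, adjusted p = 0.389). Apoe, the lipid carrier, measured 1316 and 1555 FPKM in the bulb, 1112 and 1719 in the cortex, and 574 and 508 in the brainstem. The brainstem was lowest for both genes without passing the test. Aqp4, the water channel of astrocyte endfeet, measured 31.0 and 57.3 FPKM in the bulb, 36.1 and 66.6 in the cortex, and 55.2 and 44.0 in the brainstem, and Aldh1l1, a folate enzyme used as an astrocyte marker, measured between 7.26 and 29.4 FPKM; the regions overlapped for both. Gfap, an intermediate filament, measured 18.8 and 12.8 FPKM in the bulb, 9.22 and 25.4 in the cortex, and 5.46 and 0.0915 in the brainstem. The 12 tested genes of transmitter uptake and breakdown had a median of -0.92 between brainstem and cortex (-0.56 without brainstem replicate 2), where limma called none and 3 had an unadjusted p under 0.05.

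Mag, the myelin-associated glycoprotein of oligodendrocytes, had its highest values in the brainstem but varied within each region. It measured 26.4 and 66.3 FPKM in the brainstem, 4.78 and 35.0 in the cortex, and 16.0 and 1.89 in the bulb. The cortex overlapped both other regions, and neither the difference from cortex (1.57 ± 0.92, adjusted p = 0.568) nor that between bulb and brainstem (-2.62 ± 0.92, adjusted p = 0.20) passed the test. Mbp, a structural protein of myelin, measured 1255 and 2623 FPKM in the brainstem, 1122 and 1474 in the cortex, and 388 and 1321 in the bulb. Of the 20 mature oligodendrocyte genes, 18 had a positive difference between brainstem and cortex (median 0.74) and all 20 a negative one between bulb and brainstem (median -1.31). Over all genes the shares with these directions were 32.5% and 32.8%. Limma called none in any comparison, with 0, 0 and 3 genes at an unadjusted p under 0.05 in the order given above. These directions depended on single libraries. The median between brainstem and cortex was -0.59 without cortex replicate 1, 2.21 without cortex replicate 2 and -0.03 without brainstem replicate 2. Over all genes the medians of these fits were -0.42, -0.15 and -0.07. The list median between bulb and brainstem stayed negative, between -2.06 and -0.57, without each library in turn. The list summed to 2479.6 and 5844 FPKM in the brainstem, 1566 and 3697 in the cortex, and 1192 and 2289 in the bulb. Genes of oligodendrocyte precursors (14 tested) had medians between -0.13 and 0.01, with no call by limma and at most 1 gene at an unadjusted p under 0.05.

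Markers of vessels and of other tissues were examined in the same way. No gene of the endothelial (15 tested), mural (10), fibroblast (10), choroid plexus and ependyma (10) or red blood cell (5) lists was called by limma in any of the 3 comparisons, and between 0 and 6 genes of each had an unadjusted p under 0.05. Ttr, a transport protein made in bulk by choroid plexus, measured 630.2 and 0.239 FPKM in the bulb, 1661 and 461 in the cortex, and 5625 and 3372 in the brainstem. All 10 tested genes of the choroid and ependyma list were higher in the brainstem than in the cortex, beside 32.5% of all genes. The list median was 1.17 (1.61 without brainstem replicate 2). Between bulb and brainstem the median was -2.16 (-2.31 without that library), and 6 of the 10 had an unadjusted p under 0.05. The part of such RNA in the other differences was not tested. Brainstem neuron genes were rare: 4 of 13 passed the filter, and the list summed to between 0.390 and 13.5 FPKM.

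The regional differences of B were then set against those in A and C, the populations of the same 3 regions whose libraries had earlier shown no conflict with their region labels. Cortex A replicate 2 held 4283 genes at 1 FPKM or more, with 82.5% of transcripts at 0. In cortex A replicate 1 these values were 7999 and 70.0%. Replicate 2 enters every comparison with the cortex of A, including the test of B against A and C. Its part in them was not tested. Of the 30 genes called higher in the bulb than in the cortex of B, 28 had the same direction in A and 26 in C, with medians of 1.98 and 1.13 there against 2.62 in B; the share of all genes with that direction was 80.2% in A and 45.5% in C. Frzb measured 32.3 and 27.6 FPKM in the bulb of A and 14.4 and 14.4 in that of C, and Npy 396 and 375 in A and 168 and 126 in C. Dao measured 22.1 and 21.1 FPKM in the brainstem of A and 13.1 and 21.5 in that of C, above the values in B. Of the 13 genes lower in the brainstem than in the cortex of B, 10 had that direction in A and 12 in C, beside 28.7% and 51% of all genes. Of the 13 higher in the brainstem, 9 had that direction in A and 9 in C, beside 67.1% and 45.4% of all genes. Camk2a was among the lower genes, with differences of -4.81 in A and -4.45 in C. Against cortex, limma called Frzb in A (4.27 ± 0.77, adjusted p = 0.00681) and not in C (3.58 ± 0.77, adjusted p = 0.0771), while Dao was called against cortex in both (adjusted p = 0.000137 and 9.85e-05).

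The 35 genes higher in the brainstem than in the bulb of B had that direction in 18 cases in A and 26 in C, where 30.9% and 48.1% of all genes had it, with medians of -0.04 and -0.31 against -2.30 in B. Gpr84 differed between bulb and brainstem by -0.06 ± 0.68 in A and -1.44 ± 0.68 in C, Il1b by -0.05 ± 0.47 and -0.61 ± 0.47, and Irf5 was listed at 0 in all bulb and brainstem libraries of A. The test of the difference itself did not separate B from A and C for these genes, with adjusted p = 0.509 for Gpr84, 0.596 for Il1b and 0.116 for Irf5. Over all genes, the difference between bulb and cortex in B departed from the mean of that in A and C for 2 genes (0.0147% of those tested), that between brainstem and cortex for 2 (0.0147%) and that between bulb and brainstem for 3 (0.0221%). At an unadjusted p under 0.05 these counts were 428, 1011 and 739. The called genes, Pigf, Ighm, Xrcc6 and Ndufa4l2, were listed at 0 in between 28 and 33 of the 36 libraries.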

How the data were processed

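Total RNA of sorted mouse brain cells was extracted with a NucleoSpin kit, made into cDNA with the NuGEN Ovation V2 system (random and oligo-dT priming, no strand mark) and sequenced on an Illumina HiSeq instrument, per the labels. Per the submitters' processing notes, bcl2fastq 1.8.3, TopHat and Cufflinks were used with mm10; for TopHat and Cufflinks no version is given in the sources used. The deposited tables give FPKM with its interval and coverage for 63241 transcripts, per the file headers. FPKM is already scaled by mapped fragments, so no count model was used. The deposited coverage, a signal per transcript, served only as a relative depth. The deposited FPKM interval had a median half-width of 10.1% to 12.0% near 10 FPKM in the B libraries, which covers the estimate within a library only.

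Transcripts were assigned by position to genes of GENCODE vM21 on GRCm38, which shares coordinates with mm10 (overlap score of at least 0.5, lead of 0.1, strand ignored). This placed 52549 transcripts (83.1%) in 25458 genes and 94.0% to 95.8% of the nuclear FPKM of the B libraries. FPKM was summed per gene, and a gene was tested if 2 or more libraries reached 1 FPKM, which left 13579 genes. Overlapping genes and paralogs share reads that Cufflinks divides by estimation, so their values are uncertain.

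limma 3.58.1 in R 4.3.3 was fitted to log2(FPKM + 1) of all 36 libraries as 18 group means, a trend in the prior variance, 18 residual degrees of freedom and 11.6 prior degrees of freedom. Two-sided tests were adjusted by Benjamini-Hochberg over all genes tested. The scale understates changes of low genes. The groups have 2 libraries each, numbered in deposited order, since the labels give no replicate number. The script was tested on simulated data. Genes named are the 8 largest called differences per direction among protein-coding genes with a mean of at least 5 FPKM in the higher region and no overlap between libraries, and genes of 28 marker lists, of whose 420 genes 419 were matched; further names are marked as such. The members, lists and tests were chosen with earlier results of these data known. Alternatives were other scales, pseudocount, filters, gene value, weights, covariates, threshold, samples in the fit and leaving out each B library.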

Additional observations from a re-analysis of the deposited data

Results flagged for a closer look

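For 4 genes the regional difference in B departed from the mean of the same difference in A and C by limma's test over all genes. The sizes below are on the log2(FPKM + 1) scale and are no fold changes, since most values are listed at 0. Pigf, an enzyme of membrane anchor synthesis, exceeded the A and C difference by 2.32 ± 0.37 between olfactory bulb and cortex (adjusted p = 0.0111) and by 2.32 ± 0.37 between olfactory bulb and brainstem (adjusted p = 0.00602), and it was listed at 0 in every A and C library. Ighm, the immunoglobulin mu constant region, exceeded it by 5.80 ± 0.99 between olfactory bulb and cortex (adjusted p = 0.0145); it measured 12.1 and 25.8 FPKM in the bulb of B and 0 in the other B libraries, but also 9.70 and 11.8 in the cortex of C. Xrcc6, a DNA repair subunit, departed by 2.68 ± 0.43 between brainstem and cortex (adjusted p = 0.012) and by -2.68 ± 0.43 between olfactory bulb and brainstem (adjusted p = 0.00602), with 0 in every A and C library. Ndufa4l2, a mitochondrial protein, departed by 3.11 ± 0.52 between brainstem and cortex (adjusted p = 0.0122) and by -3.11 ± 0.52 between olfactory bulb and brainstem (adjusted p = 0.00813). Pigf was listed at 0 in 32 of the 36 libraries, Ighm in 28, Xrcc6 in 33 and Ndufa4l2 in 33. Groups at 0 add no spread, so the SE and p of these genes rest on few values. None of these differences was called after rescaling, after quantile normalization or without populations D and E. Between olfactory bulb and cortex, Pigf and Ighm also lost the call without bulb replicate 2 (adjusted p = 0.0701 and 0.112) and without cortex replicate 2 (adjusted p = 0.105 for both). Pigf and Xrcc6 overlap neighbouring genes, so their estimates are uncertain.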

How the results depend on the processing

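Among the genes refitted under the alternatives, which are those chosen by the naming rule and the called genes of the lists, no direction reversed. For pairs of regions within B, the naming rule allows no overlap between libraries. Leaving out a single B library could therefore not reverse the genes it chose, so the lack of reversals there is no test of them. Some genes were not tested under every alternative, such as Grrp1, which was refitted in 17. Mbp, which is described only as a list gene, went from 0.50 to -0.03 between brainstem and cortex without brainstem replicate 2. Over these refitted genes and their alternatives, 1258 values kept their side of the threshold, 492 lost the call and 16 gained it. The counts below are in the order olfactory bulb against cortex, brainstem against cortex, olfactory bulb against brainstem, any region, and the same 3 pairs in B against A and C; they were 36, 26, 111, 108, 2, 2 and 3 as reported. Rescaling to equal totals gave 1, 14, 8, 21, 0, 0 and 0. Quantile normalization gave 8, 18, 43, 59, 0, 0 and 0. A pseudocount of 0.1 gave 6, 23, 24, 40, 0, 1 and 1. No filter gave 103, 81, 163, 203, 23, 28 and 37. The transcript with the highest mean gave 38, 34, 82, 102, 3, 7 and 10. The 6 B libraries alone gave 5, 0, 12 and 8. Leaving out populations D and E gave 134, 84, 293, 306, 0, 0 and 1. Leaving out the 2 libraries of D and E that go against their region label gave 81, 37, 185, 185, 2, 2 and 4. Array quality weights gave 98, 2, 5, 77, 3, 2 and 2. A term for the library number series gave 40, 11, 22, 46, 2, 0 and 3. A required difference beyond 1 gave 2, 0 and 2 for the 3 pairs and 0, 0 and 0 against A and C. Taking the mean over A, C, D and E gave 3, 2 and 9. The filter on the B libraries left all 7 counts within 1.5 times. Chosen after seeing the data, a term for Y-linked RNA gave 42, 31, 114, 107, 2, 2 and 4, and with the B libraries alone 8, 17, 30 and 48. Leaving out each B library in turn gave ranges of 9 to 55, 17 to 670, 31 to 830, 62 to 644, 0 to 22, 2 to 318 and 3 to 238, where the lone library left in a region is assumed to vary like the others. The highest counts of brainstem comparisons came without brainstem replicate 1, when replicate 2 alone stood for the region, and without replicate 2 they were 25 and 31. Rescaling moved the median of all genes between brainstem and cortex from -0.30 to -0.55 and between olfactory bulb and brainstem from 0.34 to 0.68. The cause of these changes was not tested. The labels give no replicate numbers and pair no libraries, so no paired analysis was made from them. With the B libraries alone, the term for Y-linked RNA sets replicate 1 of every region against replicate 2. That fit is therefore the same as one paired by these replicate numbers. Whether libraries with the same number share animals is not known.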
